A study of Mus musculus with 477 samples.

Results

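The lysyl oxidases and the lysyl hydroxylases were followed in single mammary luminal and tumor cells. The 8 genes were taken by symbol from the count table: the lysyl oxidases *Lox*, *Loxl1*, *Loxl2*, *Loxl3* and *Loxl4*, and the lysyl hydroxylases *Plod1*, *Plod2* and *Plod3*. All 8 were among the 21004 genes of the table. The cells had been caught one by one in the chambers of Fluidigm C1 chips, in which full-length cDNA is made from each. The values are reads per gene and cell, written below as CPM, a gene's reads as a share of all reads of the same cell or mouse, scaled to 1000000. There were 165 tumor cells (4 mice) and 312 luminal cells (7 mice).

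Every mouse was female, carried *MMTV-Cre*, a Cre recombinase driven mainly in mammary epithelium, and was of mixed C57BL/6 and 129/Sv background. Luminal mice also carried the ROSA mT/mG reporter, which the study does not state for the tumor mice. Br mice were *Brca1* fl/fl, 53 mice were *Trp53* fl/+ with intact *Brca1*, and Br53 mice carried both sets of alleles, so that no mouse lacked both deletions. The methods of the study give these *Trp53* alleles, whereas the legend to its single-cell workflow writes *Trp53* fl/fl for both. Luminal cells (L) came from virgin (v) or pregnant (p, day 12.5) mice aged 3 to 4 months and were sorted as live mGFP+ cells with high CD24 and low CD29. Tumor cells (T) came from tumors about 1 cm across and were sorted as live cells on CD24 alone. Blood and endothelial cells had been depleted before both sorts. The labels give no age for these 4 tumor mice. The study describes tumors of Br mice as arising at an older age than that of the luminal mice, and sooner with the *Trp53* allele. Age and tissue can therefore not be told apart in the tumor comparison. The 10 groups were vBrL, pBrL, vBr53L, pBr53L, v53L, p53L, BrT1, BrT2, Br53T1 and Br53T2. The group pBrL held 2 mice (pBrL-1 and pBrL-2) and every other group held 1, so each tumor is 1 animal. Summed over its cells, a mouse gave 40338926 to 115827852 reads, and single cells gave 170209 to 3550564.

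Lysyl hydroxylases work inside the endoplasmic reticulum, where they add a hydroxyl group to lysines of new collagen chains. *Plod1* encodes the enzyme that acts mainly on lysines of the triple helix, *Plod2* the one best known for the telopeptides at the chain ends, and *Plod3* an enzyme that also adds sugars to hydroxylysine. Lysyl oxidases are secreted copper enzymes that oxidise lysine and hydroxylysine in collagen and elastin, the first step of the cross-links that stiffen the matrix. *Lox* and *Loxl1* form one branch of the family, and *Loxl2*, *Loxl3* and *Loxl4*, which carry scavenger receptor domains, form the other.

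Reads can be assigned to a paralog only where the transcripts differ, so the metal-binding site that defines each family is shown first, where the paralogs can be compared base by base. The copper site of the lysyl oxidases was located by its run of histidines in the translated reading frames of GENCODE vM21 transcripts on GRCm38, the assembly also named mm10. Its 60 coding bases are given 5′ to 3′ for the 4 Loxl genes, with capitals at the 34 positions where all 4 have the same base. Each window lies in coding sequence and spans an exon junction: exons 3 and 4 of *Loxl1* (chr9:58293705-58294393, minus strand), exons 10 and 11 of *Loxl2* (chr14:69682304-69689052, plus strand), exons 10 and 11 of *Loxl3* (chr6:83049983-83050140, plus strand) and exons 11 and 12 of *Loxl4* (chr19:42598792-42599911, minus strand).
Loxl1: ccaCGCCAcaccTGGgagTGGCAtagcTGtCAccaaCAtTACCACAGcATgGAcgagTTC
Loxl2: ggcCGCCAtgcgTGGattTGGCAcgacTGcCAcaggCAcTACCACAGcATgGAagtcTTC
Loxl3: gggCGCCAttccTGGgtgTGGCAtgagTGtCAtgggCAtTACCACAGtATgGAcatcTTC
Loxl4: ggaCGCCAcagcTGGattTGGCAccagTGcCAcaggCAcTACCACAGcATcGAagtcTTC

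The iron site of the lysyl hydroxylases, with the histidine and aspartate that hold the metal, is given in the same way, with capitals at the 33 of 60 positions that all 3 share. It lies within 1 coding exon of each gene: exon 18 of *Plod1* (chr4:147913235-147913294, minus strand), exon 19 of *Plod2* (chr9:92606815-92606874, plus strand) and exon 18 of *Plod3* (chr5:136994984-136995043, plus strand).
Plod1: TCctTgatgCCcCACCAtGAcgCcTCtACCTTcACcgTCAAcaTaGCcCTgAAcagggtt
Plod2: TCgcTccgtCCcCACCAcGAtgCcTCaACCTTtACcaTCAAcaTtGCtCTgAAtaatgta
Plod3: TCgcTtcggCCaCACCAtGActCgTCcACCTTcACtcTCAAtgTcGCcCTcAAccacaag

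Within the windows *Loxl2* and *Loxl4* were the closest pair of the 4 Loxl genes, with 52 of 60 bases alike and their longest shared stretch of 23 bases, and *Loxl1* and *Loxl2* the most distant, with 40. Over the whole transcripts, the longest stretch without a difference between a pair of lysyl oxidases was 32 bases (*Lox* and *Loxl1*), and between a pair of lysyl hydroxylases 24 bases (*Plod1* and *Plod3*). The authors kept trimmed reads of at least 50 bases, longer than any stretch shared within either family. The encoded proteins were 33.2% to 56.4% identical among the lysyl oxidases and 58.3% to 60.5% identical among the lysyl hydroxylases, over the residues that could be aligned.

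The lysyl oxidases were near 0 in luminal mice and differed between tumors in which paralog was read. BrT1 had reads of all 5, BrT2 and Br53T1 had mostly *Loxl3* with some *Loxl4*, and Br53T2 had few reads of any. The lysyl hydroxylases were read in every tumor, and *Plod3* also in every luminal mouse. Of the 6 members that passed the low-count filter, 1, *Loxl3*, which passed it through the tumors alone, was called higher in tumors than in *Brca1*-deficient luminal cells, and 5 had an unadjusted p under 0.05. Over all 12978 genes tested, edgeR called 79 (0.609%), of which 51 were higher in tumors (0.393% of the genes tested), and 1788 had an unadjusted p under 0.05. A member that was not called is not shown to be equal between groups.

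**Figure D1:**
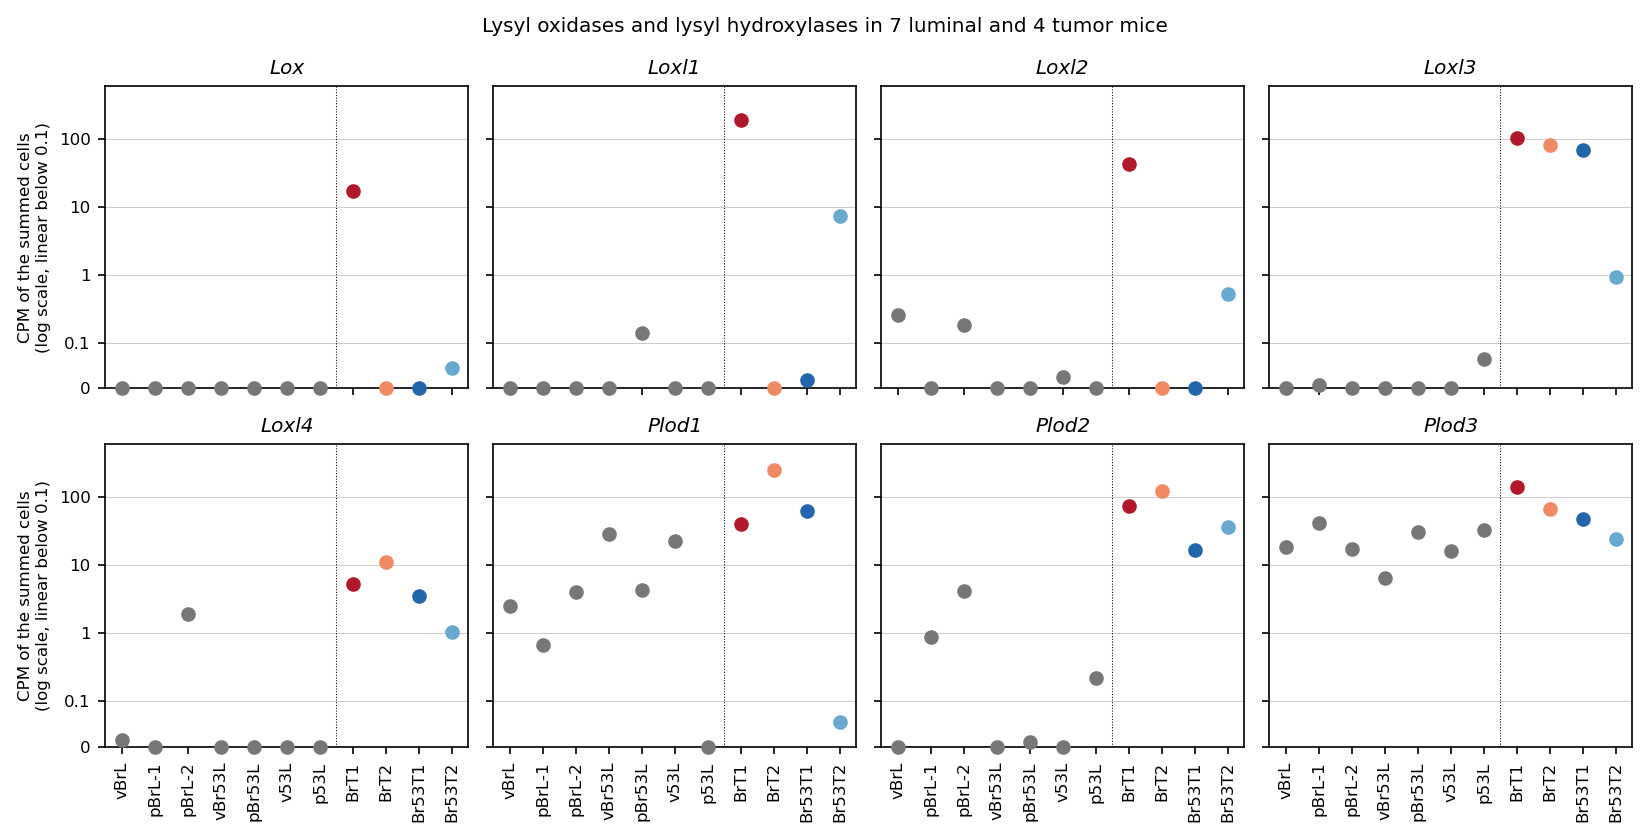
Summed CPM of each gene in each mouse, on a log axis that is linear below 0.1 CPM, with luminal mice in grey to the left of the dotted line and the 4 tumor mice in color to the right. *Loxl3* stands above 60 CPM in 3 tumors and below 0.1 CPM in every luminal mouse, whereas *Lox*, *Loxl1* and *Loxl2* are high in BrT1 alone.

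*Loxl3* encodes a lysyl oxidase needed for the growth of palate and spine. BrT1 had 105 CPM of it, BrT2 80.1, Br53T1 67.7 and Br53T2 0.936. In the luminal mice it had 1 read in pBrL-1, 3 reads in p53L and no read in the other 5. The 4 tumors therefore all lay above the 5 *Brca1*-deficient luminal mice, with Br53T2 far below the other tumors. The mean was 63.5 ± 44.5 CPM (SD, n = 4) in tumors and 0.00173 ± 0.00386 (SD, n = 5) in *Brca1*-deficient luminal mice. The fitted difference was 13.94 on the log2 scale (SE 1.56, adjusted p = 0.00756, edgeR quasi-likelihood test with Benjamini-Hochberg adjustment), a value that depends on the prior count because 4 of the 5 luminal mice had no read. *Loxl3* had passed the low-count filter through the tumors alone, the group in which it was high. Pooled over the mice of this comparison, the ratio of tumor to *Brca1*-deficient luminal CPM was 26065, with a 95% counting interval from 4678 to 1029507 that rests on the 1 read in the 5 luminal mice.

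The call of *Loxl3* was lost in 3 of 18 alternatives. Without pBrL-1 the adjusted p became 0.0612, and against the virgin mice alone it was 0.324, although the fitted difference was 15.16 and 15.10. All genes called fell there to 11 and 0. With limma on log values averaged over cells it was 0.0802. Without BrT1 the adjusted p was 0.0204. These fitted differences all depend on the luminal mice at 0.

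*Loxl3* lies on chromosome 6 (83034173-83052562, plus strand), where 535 bases of its exons (11.6%) overlap exons of *Htra2* on the other strand. The use of strand in counting was not stated. *Htra2* itself had 24 to 1137 reads in the luminal mice, in which *Loxl3* had 0 to 3, and 195 to 851 reads in the tumors.

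*Loxl1*, the paralog known for elastic fibre homeostasis, was read at 188 CPM in BrT1, 7.35 in Br53T2, 0.0182 in Br53T1 and not at all in BrT2. Among luminal mice pBr53L had 14 reads, all in 1 cell, and the other 6 had none. *Loxl1* was thus a BrT1 gene in these samples, and in Br53T2 663 of its 668 reads came from 1 cell. *Lox*, the founding member of the family, was read at 17.4 CPM in BrT1 (1580 reads) and at 0.044 CPM in Br53T2 (4 reads). It had no read in BrT2, Br53T1 or any of the 517047975 luminal reads, where 3 counts would be 0.0259 to 0.0744 CPM in a single mouse. This limit covers counting error only, since reads of a gene came in bursts from single cells, and 0 of 312 luminal cells allows up to 0.962% of cells with a read. *Lox* and *Loxl1* did not pass the low-count filter of the tumor comparison. Without the filter neither was called (adjusted p = 0.233 and 0.112, edgeR).

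*Loxl2*, an oxidase of collagen IV and a known partner of Snail, was read at 42.3 CPM in BrT1, 0.528 in Br53T2 and not at all in BrT2 and Br53T1. It was listed at 0.26 CPM in vBrL, 0.182 in pBrL-2, 0.0248 in v53L and 0 in the other 4 luminal mice. Luminal and tumor mice overlapped, and the fitted difference of 6.74 (SE 2.83) did not pass the test (adjusted p = 0.321, edgeR). Without BrT1 it fell to 0.859.

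*Loxl4* was read at low levels in all 4 tumors. BrT2 had 11.3 CPM, BrT1 5.4, Br53T1 3.55 and Br53T2 1.06. Among luminal mice pBrL-2 had 1.93 CPM, where 1 cell held all 149 reads, vBrL had 0.0144 and the others had 0. The tumors overlapped pBrL-2, and the difference of 3.75 (SE 2.19) did not pass the test (adjusted p = 0.493, edgeR). Few cells carried it, since 87.7% of its reads in BrT2 and 87.2% in Br53T1 came from 1 cell each.

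The lysyl hydroxylases were higher on average in tumors, but none was called by edgeR, and DESeq2 called *Plod2*. *Plod2* was read at 125 CPM in BrT2, 74.6 in BrT1, 36.6 in Br53T2 and 16.7 in Br53T1. In luminal mice it was at 4.22 CPM in pBrL-2, 0.889 in pBrL-1, 0.218 in p53L and 0.00993 in pBr53L, and the 3 virgin mice had no read. All 4 tumors lay above all luminal mice. *Loxl3* and *Plod2* were the 2 of 6 members tested without overlap between tumors and *Brca1*-deficient luminal mice, both higher in tumors, against 5.01% of all genes without overlap and higher and 2.51% without overlap and lower. *Plod2*, like *Loxl3*, passed the low-count filter through the tumors, so the separation of either is no independent support. The difference was 5.92 (SE 1.86) with an adjusted p of 0.186 by edgeR and of 0.0382 by DESeq2.

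*Plod3* was the member read most evenly. BrT1 had 141 CPM, BrT2 68, Br53T1 47.8 and Br53T2 24.7, and the 7 luminal mice ranged from 6.53 to 42 with a median of 18.7. Br53T2 lay within the luminal range, and the difference of 1.47 (SE 0.61) did not pass the test (adjusted p = 0.316, edgeR). The 529 exonic bases (11.7%) that *Plod3* shares with the opposite-strand gene *Znhit1* leave part of its reads uncertain. *Znhit1* had 983 to 5266 reads in tumors and 1201 to 3540 in luminal mice.

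*Plod1* differed widely among tumors. It was read at 255 CPM in BrT2, 62.3 in Br53T1, 40.4 in BrT1 and 0.055 in Br53T2, which had 5 reads. The luminal mice ranged from 0 in p53L to 29.3 in vBr53L, with a median of 4.05. BrT1, BrT2 and Br53T1 lay above every luminal mouse, and Br53T2 lay below 6 of the 7. The difference of 3.39 (SE 1.51) did not pass the test (adjusted p = 0.352, edgeR).

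Only 1 chip, SC6, held both a tumor and luminal cells, so that elsewhere chip and tissue cannot be told apart. On SC6, Br53T2 and pBrL-2 had 0.936 and 0 CPM of *Loxl3*, 36.6 and 4.22 of *Plod2*, 24.7 and 17.2 of *Plod3*, 1.06 and 1.93 of *Loxl4*, and 0.055 and 4.05 of *Plod1*. They had 7.35 and 0 CPM of *Loxl1*, 0.528 and 0.182 of *Loxl2*, and 0.044 and 0 of *Lox*. In Br53T2, 1 cell held 663 of the 668 *Loxl1* reads and 45 of the 48 *Loxl2* reads, and all 4 *Lox* reads came from 1 cell.

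The groups were also put in order by CPM for the 3 lysyl hydroxylases. The spread within a group could be seen in pBrL alone, where the values of the 2 mice differed 6.01-fold for *Plod1*, 4.74-fold for *Plod2* and 2.44-fold for *Plod3*. *Plod3* ran from BrT1 (141) and BrT2 (68) over Br53T1 (47.8), p53L (33), pBr53L (30.8), pBrL (29.6), Br53T2 (24.7), vBrL (18.7) and v53L (16.1) to vBr53L (6.53). Of these 9 steps, 1, from v53L to vBr53L, was larger than the step between the pBrL mice. For *Plod1* it was 1 of 8 steps, from pBrL (2.36) to Br53T2 (0.055). For *Plod2* 3 of 6 steps were larger: from the lowest tumor, Br53T1 (16.7), to the mean of pBrL (2.55), from there to p53L (0.218), and on to pBr53L (0.00993). No step between neighboring tumors was larger for *Plod2*.

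To compare paralogs within a tumor, reads were divided by the exon length of each gene and expressed as a share of the family. In BrT1 *Loxl1* held 61.6% of the lysyl oxidase reads per kb, *Loxl3* 24.6%, *Loxl2* 8.45%, *Lox* 3.94% and *Loxl4* 1.38%. In BrT2 *Loxl3* held 86.7% and *Loxl4* 13.3%, with the other 3 at 0. In Br53T1 *Loxl3* held 94.5% and *Loxl4* 5.42%. *Loxl3* was therefore the leading paralog in both of these tumors, and *Loxl1* in BrT1. Br53T2 had 901 lysyl oxidase reads in all, of which 78.7% were in 1 cell. *Loxl1* held 79.9% of its family there, and 3.45% when that cell was left out, so no leading paralog can be named for Br53T2.

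**Figure D2:**
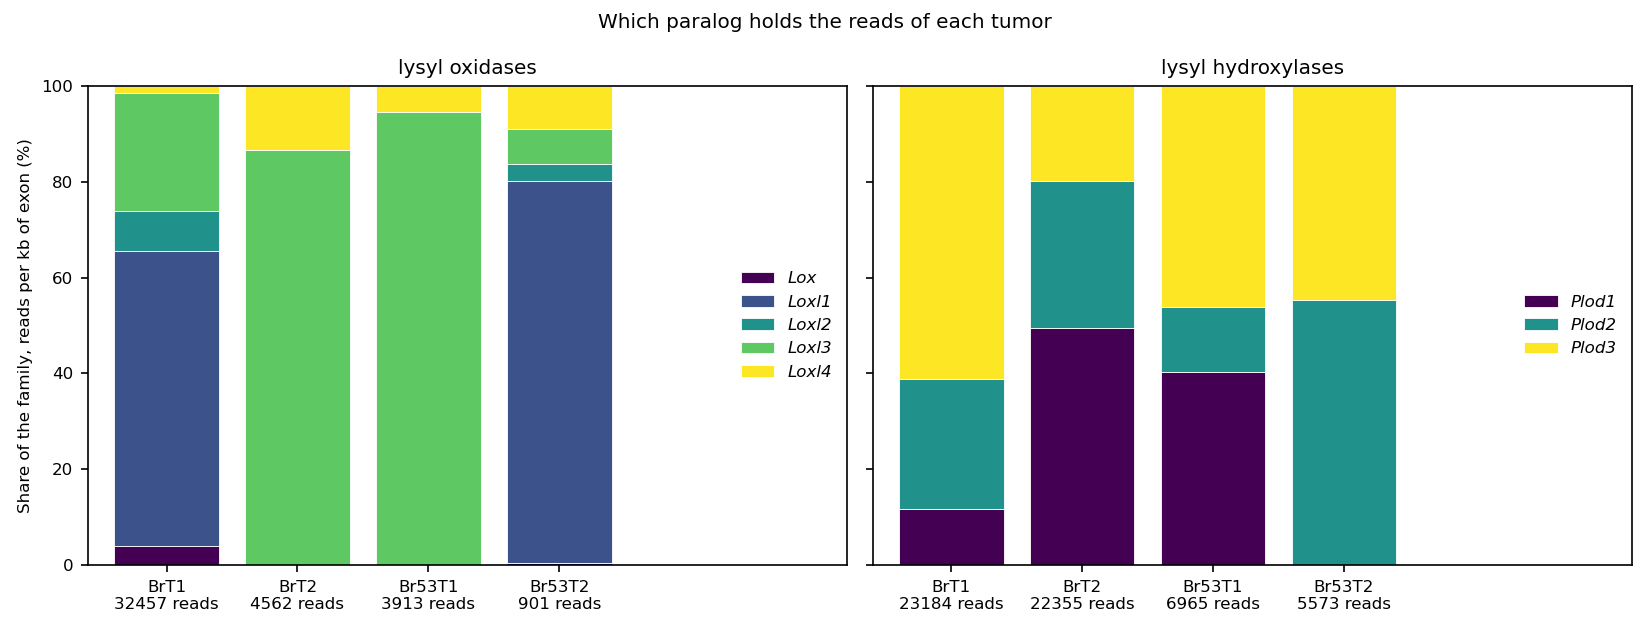
Share of each family's reads per kb of exon (y axis, %) held by each paralog in each of the 4 tumors, with the number of family reads under each bar. *Loxl3* fills 86.7% of the BrT2 bar and 94.5% of the Br53T1 bar, and the *Loxl1* share of Br53T2 comes mostly from 1 cell.

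Among lysyl hydroxylases, *Plod3* led in BrT1 with 61.2% of the family, ahead of *Plod2* (27.1%) and *Plod1* (11.7%). In BrT2 *Plod1* led with 49.6%, ahead of *Plod2* (30.6%) and *Plod3* (19.8%). In Br53T1 *Plod3* (46.2%) and *Plod1* (40.2%) were close, and their order turned when the length of the longest coding transcript was used (38% and 50.1%). In Br53T2 *Plod2* held 55.3% and *Plod3* 44.6%, and the order turned when the cell with most reads was left out (38.4% and 61.5%). *Plod1* held 0.0664% in Br53T2. Summed over the family, BrT2 had 75.9 CPM per kb of lysyl hydroxylases, BrT1 51, Br53T1 22.9, Br53T2 12.3 and the luminal mice 4.51 to 9.55. Of lysyl oxidases BrT1 had 92.6 CPM per kb, BrT2 20.1, Br53T1 15.6, Br53T2 2.79 and a luminal mouse at most 0.493.

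Single cells were then assigned to the paralog highest in them. Of the 47 BrT1 cells, all of which had a lysyl oxidase read, *Loxl1* was the highest per kb in 33, *Loxl3* in 8, *Loxl2* in 4 and *Lox* in 2. *Loxl3* was the highest in 20 of 23 BrT2 cells with a read and in 15 of 18 Br53T1 cells. In Br53T2, 14 of 51 cells had a lysyl oxidase read and *Loxl3* was the highest in 5 of them. Among lysyl hydroxylases, *Plod3* was the highest in 29 of 47 BrT1 cells and *Plod1* in 19 of 37 BrT2 cells. In Br53T1 *Plod1* was the highest in 14 of 29 cells and *Plod3* in 12. In Br53T2 *Plod2* and *Plod3* were the highest in 18 of 37 cells each.

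**Figure D3:**
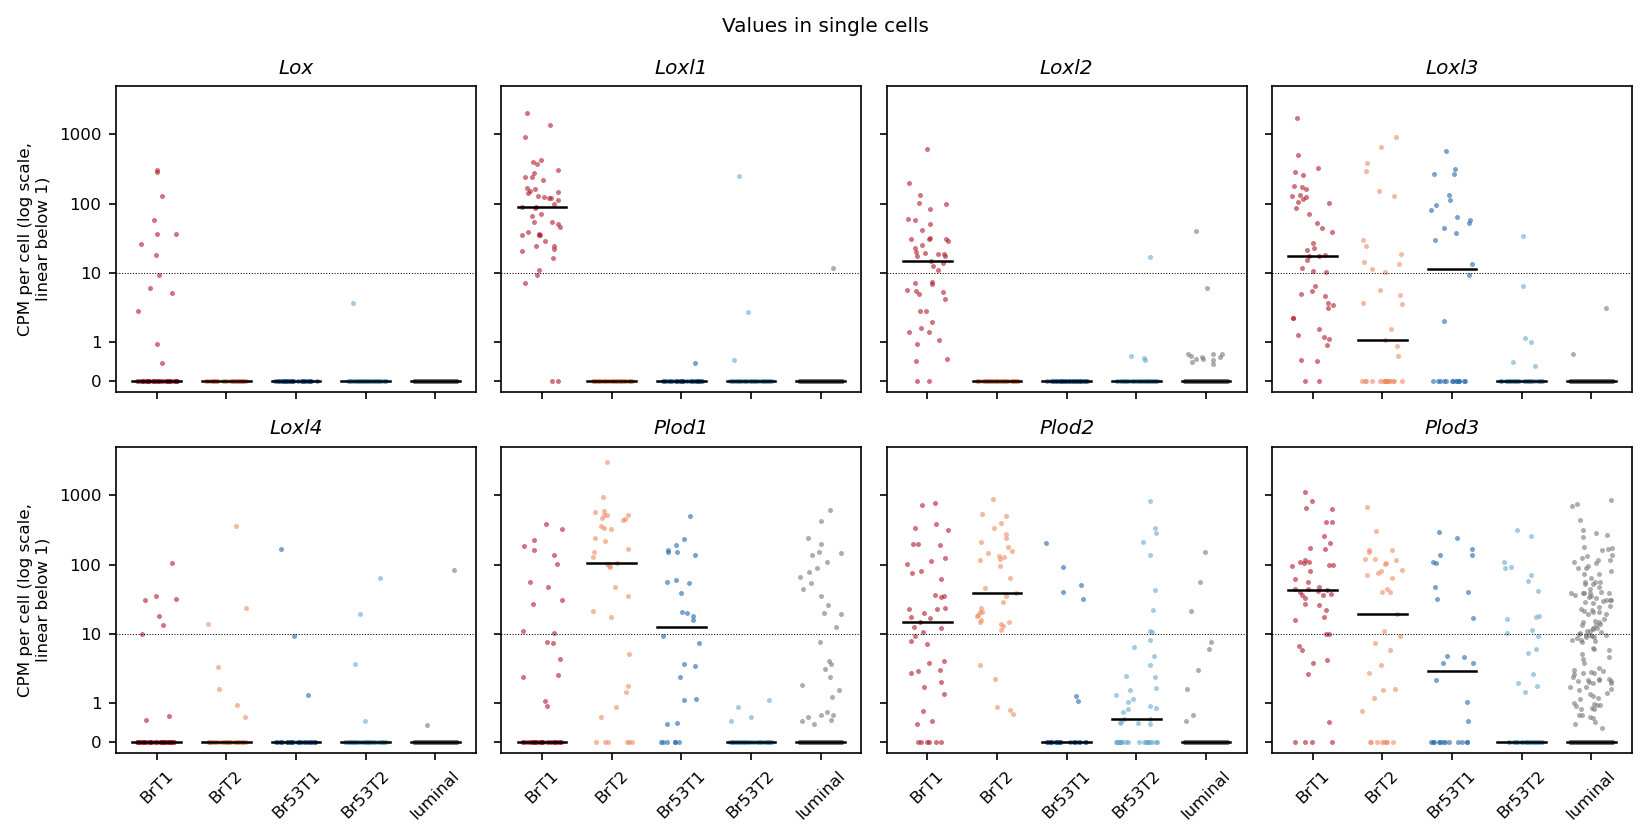
CPM of each gene in single cells of the 4 tumors and of the 7 luminal mice together, on a log axis that is linear below 1, with the median as a black bar and a dotted line at 10 CPM. *Loxl1* has a median of 88.4 CPM over BrT1 cells, whereas *Loxl3* in BrT2 and Br53T1 is spread from 0 to 931 and 570 CPM.

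Since depth differed between cells, each cell was thinned to 100000 reads, and the share of cells with a read was taken with an exact 95% binomial interval that covers counting error only. *Loxl1* was seen in 95.7% of BrT1 cells (85.5% to 99.5%), *Loxl2* in 68.1% (52.9% to 80.9%), *Loxl3* in 61.7% (46.4% to 75.5%) and *Lox* in 23.4% (12.3% to 38%). *Loxl3* was seen in 53.3% of Br53T1 cells (34.3% to 71.7%), 37.8% of BrT2 cells (22.5% to 55.2%) and 3.92% of Br53T2 cells (0.478% to 13.5%). The cells of a tumor come from 1 animal and 1 chip, so these intervals do not compare animals. In the 312 luminal cells, 0 had a *Loxl3* read after thinning, which allows a share of up to 0.962% by 3 counts and 1.18% by the exact interval, and 2 (0.641%) had one before thinning. Before thinning, *Loxl3* had a read in 95.7% of BrT1 cells, 16 of which were under 10 CPM.

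*Plod2* was seen in 81.1% of BrT2 cells (64.8% to 92%), 66% of BrT1 cells (50.7% to 79.1%), 21.6% of Br53T2 cells (11.3% to 35.3%) and 16.7% of Br53T1 cells (5.64% to 34.7%), against 1.6% of luminal cells (0.522% to 3.7%). Before thinning, 30 of 51 Br53T2 cells (58.8%) had a *Plod2* read, 21 of them under 10 CPM. *Plod1* was seen in 78.4% of BrT2 cells (61.8% to 90.2%), 53.3% of Br53T1 cells (34.3% to 71.7%) and 34% of BrT1 cells (20.9% to 49.3%). It was seen in 0 of 51 Br53T2 cells, which allows up to 5.88% by 3 counts and 6.98% by the exact interval, and 4 of them (7.84%) had a read before thinning. It was seen in 6.09% of luminal cells (3.71% to 9.35%). The luminal cells pool mice of mixed stage and genotype, so their intervals do not cover the spread between mice. By mouse, the share of *Plod1* ran from 0% in p53L to 20% in v53L. *Plod3* was seen in 78.7% of BrT1 cells (64.3% to 89.3%), 56.8% of BrT2 cells (39.5% to 72.9%), 36.7% of Br53T1 cells (19.9% to 56.1%) and 23.5% of Br53T2 cells (12.8% to 37.5%), and in 27.2% of luminal cells (22.4% to 32.5%). *Loxl2* was seen in 3 of 35 cells of the luminal mouse vBrL (8.57%), and in 11 (31.4%) before thinning. *Loxl4* was seen in 5.88% to 13.5% of the cells of the tumors.

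**Figure D4:**
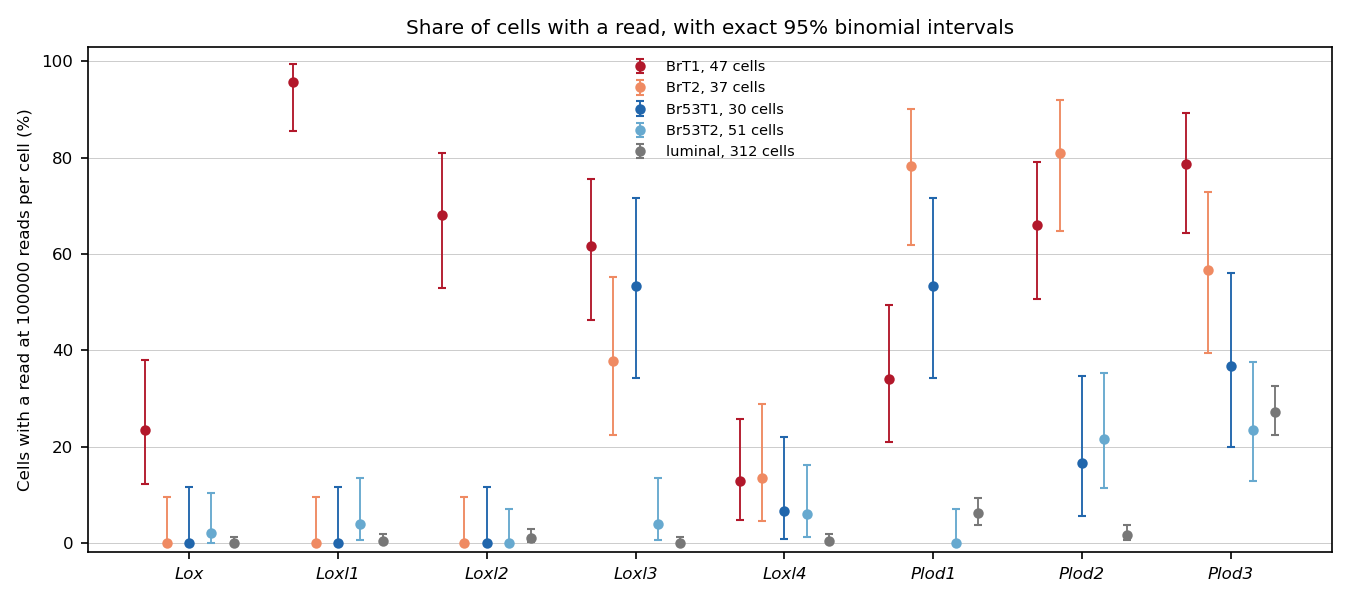
Share of cells (y axis, %) with at least 1 read of each gene after thinning to 100000 reads, for the 4 tumors and for all luminal cells, with exact 95% binomial intervals as bars. Outside BrT1, *Lox*, *Loxl1* and *Loxl2* are seen in at most 3.92% of the cells of a tumor or of all luminal cells together.

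Several lysyl oxidases were read together in single BrT1 cells. At 10 CPM or more, 41 of 47 BrT1 cells had at least 2 lysyl oxidases, 19 had 3 and 2 had all 5, against 2 of 37 BrT2 cells, 1 of 30 Br53T1 cells and 1 of 51 Br53T2 cells with at least 2. Of 312 luminal cells, 3 had 1 lysyl oxidase at this level and 0 had more. Of the lysyl hydroxylases, 29 of 37 BrT2 cells had at least 2, as did 27 of 47 BrT1 cells, 6 of 30 Br53T1 cells, 1 of 51 Br53T2 cells and 7 luminal cells. Over the cells of a tumor, the members varied largely apart from each other. Spearman correlations of CPM, described for members with at least 10 cells at 10 CPM, ranged from -0.23 to 0.48 over 24 pairs in 3 tumors with a median of 0.01. The highest was *Loxl2* with *Plod2* over 47 BrT1 cells, which share a chip and differ in depth.

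The cell of Br53T2 with most lysyl oxidase reads was also above the median of the Br53T2 cells in some other genes. It had 255 CPM of *Loxl1* and 17.3 of *Loxl2*, with no read of *Lox* and *Loxl4*. It had 1972 CPM of *Vim* and 3098 of *Fn1*, mesenchymal genes with medians of 3.76 and 11.5 over the Br53T2 cells. Yet it held only 5124 of the 19248 *Vim* reads and 8051 of the 32432 *Fn1* reads of Br53T2, so other cells held most of both. Of the fibroblast markers, it had 31.6 CPM of *Pdgfra* (median 0) and 0.385 of *Dcn* (median 0.567). Its *Krt18* and *Cdh1*, 1449 and 586 CPM, were close to the medians of 1298 and 691. It was chosen after its values were seen.

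BrT1 also stood apart in sums over markers of other cell types, though not in every mesenchymal gene. *Fn1*, which is not among the 6 mesenchymal markers below, was higher in BrT2 (6200 CPM) than in BrT1 (4926). It was lower in Br53T2 (357) and Br53T1 (2.9). The summed CPM of 6 mesenchymal markers was 5483 in BrT1, 726 to 1055 in the other tumors and 5.9 to 101 in luminal mice. That of 8 luminal markers was 633 in BrT1, against 4445 to 7313 in the other tumors and 7747 to 13417 in luminal mice. Of 8 fibroblast markers, *Dcn* (4356 CPM), *Pdgfra* (105) and *Pdgfrb* (83) were read in BrT1, whereas *Lum*, *Dpt*, *Thy1* and *Pi16* had no read and *Fap* was at 0.011 CPM. The summed fibroblast list was 4544 in BrT1, 1.9 to 102 in the other tumors and 0.1 to 712 in luminal mice. The part of these markers in the *Lox*, *Loxl1* and *Loxl2* values of BrT1 was not tested. Br53T2 had the highest sum of 8 basal markers, 5597 against 21 to 282 in the other tumors.

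Genotype of the tumor was compared next, with 2 Br53 and 2 Br mice. None of the 7 members tested was called, and edgeR called 1 of all 15051 genes (0.00664%). At an unadjusted p under 0.05 there were 768 genes and 0 members, and DESeq2 called 445 genes and 0 members. *Loxl3*, *Loxl4*, *Plod2* and *Plod3* were lower in both Br53 tumors than in both Br tumors, as were 12.1% of the genes tested. No member was higher in both, against 18.1% of the genes tested. Mean *Plod3* was 36.3 ± 16.3 CPM (SD, n = 2) in Br53 and 104 ± 51.6 (SD, n = 2) in Br tumors, a difference of -1.57 (SE 0.88, adjusted p = 0.856, edgeR). For *Loxl3* the difference was -1.5 (SE 1.5, adjusted p = 0.942, edgeR), and it moved to -0.52 without Br53T2 and to -6.70 without Br53T1. The signs of *Loxl1* and *Loxl2* turned when BrT1 was left out.

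Pregnancy was compared over the 7 luminal mice. Of the 4 members tested, 0 were called, at an unadjusted p under 0.05 or by DESeq2 as well, and edgeR called 2 of 13709 genes (0.0146%), against 1232 at an unadjusted p under 0.05 and 1044 by DESeq2. *Plod3* was at 17.2, 30.8, 33 and 42 CPM in pregnant mice and at 6.53, 16.1 and 18.7 in virgin mice. The groups overlapped, and the difference was 1.27 (SE 0.67, adjusted p = 0.623, edgeR). Within the chips that held both stages, *Plod3* was at 30.8 and 6.53 CPM in pregnant and virgin mice of SC7 and at 33 and 16.1 on SC9, higher in the pregnant mouse on both. *Plod1* went the other way on both chips, with 4.33 and 29.3 CPM on SC7 and 0 and 22.9 on SC9. Over all 7 mice its difference was -3.16 (SE 2.43, adjusted p = 0.740, edgeR). *Plod2* had 1 to 325 reads in the 4 pregnant mice and none in the 3 virgin mice, a separation also seen, in this direction, for 6.11% of the genes tested (adjusted p = 0.600, edgeR). It passed the low-count filter through the pregnant mice alone, so the separation is no independent support. The separation also rests on 1 read in pBr53L, and in pBrL-2 1 cell held 307 of the 325 reads. No member was lower in all pregnant mice, against 5.24% of the genes tested.

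Luminal mice with both deletions were compared with the 53 mice in the same fit. edgeR called 0 of 13709 genes (0.0%) and 0 of the 4 members, against 681 genes and 0 members at an unadjusted p under 0.05 and 582 genes and 0 members by DESeq2. *Plod3* was at 18.7 ± 17.2 CPM (SD, n = 2) and 24.6 ± 11.9 (SD, n = 2), a difference of -0.74 (SE 0.86, adjusted p = 0.898, edgeR). For all 4 members the genotypes overlapped, whereas 20.1% of the genes tested were higher and 11% lower without overlap. Here genotype and chip cannot be told apart for SC7 and SC9.

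The partners of these enzymes were described from lists of related genes. Of 27 genes that modify, fold or process collagen, 24 were tested in the tumor comparison, 1 was called higher and 0 lower, and 9 were higher and 1 lower at an unadjusted p under 0.05, with a median difference of 1.89 against 0.06 over all genes. The same threshold held for 1788 of all 12978 genes, in either direction. DESeq2 called 7 of the list higher and 1 lower, and 808 of all genes. The gene called by edgeR was *P4ha1*, a collagen prolyl hydroxylase. BrT1 had 343 CPM, BrT2 227, Br53T1 90.8 and Br53T2 88.4, and the *Brca1*-deficient luminal mice had 0.960 to 7.17. The groups did not overlap, and the difference was 5.23 (SE 0.68, adjusted p = 0.0131, edgeR). Its adjusted p was 0.0515 without pBrL-1. The genes of highest mean CPM in the list were *Fn1*, which encodes fibronectin, and *P4hb*, a disulfide isomerase and subunit of prolyl hydroxylase. *Fn1* stood at 6200 CPM in BrT2, 4926 in BrT1, 357 in Br53T2 and 2.9 in Br53T1, and at 0.0147 to 67.96 in the *Brca1*-deficient luminal mice, of which pBr53L and pBrL-1 lay above Br53T1 (difference 7.29, SE 2.18, adjusted p = 0.169 by edgeR and 0.00233 by DESeq2). *P4hb* stood at 494 to 1540 CPM in tumors and 411 to 650 in the *Brca1*-deficient luminal mice (0.99, SE 0.35, adjusted p = 0.233). The copper carrier *Atp7a*, which loads lysyl oxidases, was at 18.8 to 58.5 CPM in tumors and 16.6 to 73.6 in the 7 luminal mice.

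The collagens and elastic fibre proteins that these enzymes act on differed between tumors. Of 20 genes, 12 were tested, and 0 were called by edgeR and 6, all higher, by DESeq2, with 8 higher and 0 lower at an unadjusted p under 0.05, beside 1788 (and 808 called by DESeq2) of 12978 over all genes, and a median difference of 4.92. *Fbn1*, which encodes fibrillin, was read at 110 CPM in BrT1 and at most 8.88 in the other tumors. *Col2a1* and *Col11a1*, cartilage collagens, were read at 384 and 578 CPM in BrT2. *Col4a1*, a basement membrane collagen, was at 75.6 to 266 CPM in all 4 tumors and at 0.844 to 45.3 in luminal mice. *Eln*, which encodes elastin, was at most 1.38 CPM in any tumor. Of the 2 genes with the highest mean CPM over mice, *Efemp2*, a fibulin that brings lysyl oxidase to elastin, was at 50.8 to 349 CPM in tumors and 0.753 to 23 in the *Brca1*-deficient luminal mice (4.18, SE 0.97, adjusted p = 0.0759 by edgeR and 0.000118 by DESeq2). In the luminal mouse v53L, outside that comparison, *Efemp2* was at 93.95 CPM, within the tumor range. *Col11a1* was at 3 to 578 and 0.0397 to 2.97 (7.27, SE 1.56, adjusted p = 0.0645 by edgeR and 2.9e-08 by DESeq2). With each mouse left out in turn, its adjusted p by edgeR ran from 0.0498 to 0.142.

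Of 20 genes of the hypoxia response, all were tested, and 0 were called by edgeR and 3 by DESeq2, with 3 higher and 1 lower at an unadjusted p under 0.05 and a median difference of 0.75. Over all 12978 genes 79 were called by edgeR, 808 by DESeq2 and 1788 had such a p, and the median was 0.06, also beside the next list. Those of highest mean CPM were *Ldha*, a lactate dehydrogenase, at 447 to 923 CPM in tumors and 360 to 581 in the *Brca1*-deficient luminal mice (0.30, SE 0.31, adjusted p = 0.723, edgeR), and *Ndrg1* at 47 to 289 and 152 to 398 (-1.06, SE 0.49, adjusted p = 0.366). Of 19 ligands, receptors and response genes of TGF-beta, 15 were tested and 1 was called higher by edgeR, with 3 higher and 1 lower by DESeq2, 5 higher and 2 lower at an unadjusted p under 0.05 and a median difference of 0.23. The call by edgeR was *Snai1*, which passed the low-count filter through the tumors alone and which encodes the transcription factor Snail, with 8.85 to 30.2 CPM in tumors and 0 to 0.0588 in the *Brca1*-deficient luminal mice (10.36, SE 1.57, adjusted p = 0.0216, edgeR). v53L, outside that comparison, had 143 reads of *Snai1*, or 3.54 CPM, below the tumors. It lost the call in 6 of 18 alternatives: in 4 of 9 fits that left out a mouse, with an adjusted p of up to 0.0626, with all 7 luminal mice (5.12, adjusted p = 0.241) and against virgin mice alone (adjusted p = 0.324). The genes of highest mean CPM there were *Skil*, at 899 to 1554 and 747 to 2071 CPM (0.04, SE 0.39, adjusted p = 0.982), and *Cyr61*, at 180 to 1301 and 134 to 342 (1.38, SE 0.51, adjusted p = 0.260). In the other 3 comparisons edgeR called no gene of these 4 lists. Between tumor genotypes, with pregnancy and between luminal genotypes, 80, 69 and 69 of them were tested, an unadjusted p under 0.05 was found for 8, 10 and 6, and 4, 10 and 7 were called by DESeq2. Over all genes such a p was found for 768 of 15051, 1232 of 13709 and 681 of 13709, and 445, 1044 and 582 were called by DESeq2.

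The genes most like each member were found by Pearson correlation of log2(CPM + 1) over the 11 mice among 11566 genes with at least 10 CPM in some mouse, as a description. Tumors and luminal mice form separate clusters in these values, and for *Lox*, *Loxl1* and *Loxl2* the correlation rests on BrT1. For *Lox* the nearest were *Gdnf*, *Angptl7* and *Notum* (r from 0.9999 to 1.0), and for *Loxl1* *Ppp1r14c*, *Fbxl21* and *Brinp3* (0.997 to 0.998). For *Loxl2* they were *Acsl6*, *Cspg4* and *Col5a3* (0.996 to 0.998). For *Loxl3* they were *Efemp1* (r = 0.986), *Fam69b* (0.969) and *Mmp2* (0.966), and *Mmp2*, which encodes a gelatinase, ran in the order of *Loxl3*, with BrT1 at 178 CPM, BrT2 at 169, Br53T1 at 62.4 and Br53T2 at 11.7. For *Loxl4* they were *Fbxl2* (0.960), *Tbx15* (0.931) and another member, *Plod2* (0.927). The nearest to *Plod2* were *Mllt11* (0.982), *Aebp1* (0.973), a collagen-binding protein, and *Odf3l1* (0.967). Those of *Plod1* were *Flot1* (0.907) and *Lcmt1* (0.900), and those of *Plod3* were *Creld2* (0.944), *Mfap3l* (0.943) and *Klf2* (0.910).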

How the data were processed

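The authors filtered reads with sickle, trimmed them with Trim Galore 0.4.1, aligned them to mm10 with STAR 2.5.3a and counted reads per gene with Subread 1.5.3. The deposited values are raw counts per gene and cell, without molecular identifiers, so PCR copies are counted. Annotation release and use of strand were not given in the sources used here.

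The authors inspected chambers for doublets under a microscope, and no doublet caller was run here. Each mouse was taken as 1 replicate, with its cells summed, and edgeR 4.0.16 in R 4.3.3 was used (TMM factors, filterByExpr and the quasi-likelihood test), with p-values adjusted over all genes tested and called under 0.05. SE is the difference divided by the square root of F. Tumors were compared with 5 *Brca1*-deficient luminal mice without covariates, genotypes of tumors in a fit of 9 mice, and stage and genotype together over 7 luminal mice. The edgeR step was tested on simulated data. Exon lengths came from GENCODE vM21. The markers and gene lists, and the 8 members, were chosen with earlier results of these data known. Named were the 8 members, the called genes of each list (at most 6), its 2 genes of highest mean CPM and the 3 genes most like each member, of which 1 is not reported here. The values of *Fbn1*, *Col2a1*, *Col4a1*, *Eln* and *Atp7a* were named after they were seen. Alternatives were RLE factors, library size, DESeq2 1.42.0, no filter, 30 cells per mouse, limma 3.58.1, other arms and leaving out each mouse. The transcript length was added after seeing the data.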

Additional observations from a re-analysis of the deposited data

Results flagged for a closer look

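Within the 4 tumors or the 7 luminal mice, 1 mouse stood apart from the rest in 7 of 15 sets of values, on the log2(CPM + 1) scale by Dixon's criterion, which chance alone meets in about 5% of sets of normal values. Most luminal values were 0, so this share does not apply to them. Among tumors, BrT1 stood apart upward for *Lox* (gap of 0.985 of the range, 17.4 CPM against at most 0.044) and for *Loxl2* (0.887, 42.3 against at most 0.528), and Br53T2 stood apart downward for *Loxl3* (0.892, 0.936 against at least 67.7 CPM). Among luminal mice the values that stood apart rested on few cells. They were *Loxl4* in pBrL-2 (0.987, 1.93 CPM, 149 reads in 1 cell), *Plod2* in pBrL-2 (0.615, 4.22 CPM, 325 reads in 2 cells), *Loxl1* in pBr53L (1.0, 14 reads in 1 cell) and *Loxl3* in p53L (0.864, 3 reads). pBrL-2 shared its chip with Br53T2, and the part of this in its values was not tested.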

How the results depend on the processing

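*Loxl3* in tumors against luminal mice kept its direction in 18 alternatives (adjusted p from 1.4e-20 to 0.324) and lost its call with limma on the mean log2(CPM + 1) over cells (2.63, adjusted p = 0.0802), without pBrL-1 and against virgin mice alone. Members called were then 0, and 2 with DESeq2, against 1, and 0 to 1 when each mouse was left out. All genes called there were 124 by library size, 808 by DESeq2, 129 without a filter, 417 by limma, 213 with all 7 luminal mice, 44 with pregnant and 0 with virgin mice alone, against 79, and 11 to 94 when each mouse was left out (50 without BrT1, 44 without BrT2, 29 without pBrL-2, 19 without pBr53L and 11 without pBrL-1). The difference of *Skil* turned to -0.27 with all 7 luminal mice, to -0.55 with virgin mice alone, and in 5 of the 9 fits without a mouse, which ranged from -0.10 to 0.36. *P4ha1* lost its call without pBrL-1 (adjusted p = 0.0515) and against pregnant or virgin mice alone (0.0517 and 0.302).

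Between tumor genotypes, 445 genes were called by DESeq2, 344 without a filter, 13 by limma and 0 in tumor mice alone, against 1, and 1 to 183 when each mouse was left out (183 without BrT2, 9 without BrT1, 7 without Br53T1, 2 without vBrL). Without BrT1 the differences of *Loxl1* and *Loxl2* turned to 11.02 and 7.23, and over all mice left out they ranged from -12.17 to 11.02 and from -13.52 to 7.23. With pregnancy, 1044 were called by DESeq2, 366 without a filter, 0 with 30 cells per mouse, 122 by limma, 17 without a genotype term and 8 with a chip term, against 2, and 0 to 41 when each mouse was left out (41 without p53L, 38 without v53L, 18 without vBr53L, 12 without pBr53L, 5 without pBrL-2, 0 without pBrL-1 or vBrL). With 30 cells per mouse *Plod1* turned to 4.11 there and, for Br53 against 53 luminal mice, to -6.17. In that comparison it turned to -0.28 with limma and -0.27 without p53L, and *Plod2* to 2.18 without pBr53L, with ranges from -0.27 to 12.33 and from -5.37 to 2.18, while 582 genes were called by DESeq2 and 80 without a filter, against 0, and 0 to 123 when each mouse was left out (123 without p53L, 2 without v53L). No member was called under any alternative of these 3 comparisons.

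Of 32 shares of leading paralogs under an alternative, 1 moved beyond its interval over cells: *Loxl1* in Br53T2 fell to 3.45% without its highest cell. This interval treats a share of reads as a share of cells and is wide, so it does not show that the order of paralogs was kept. The turned orders of *Plod3* and *Plod1* in Br53T1 and of *Plod2* and *Plod3* in Br53T2 lay within it. Of 40 shares of cells, 1 moved at a level of 10 CPM: *Lox* in Br53T2, from 1 cell to 0. The causes were not tested. With 1 mouse in most groups, p-values measure the spread between mice of mixed stage and genotype.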
